A study of Mus musculus with 25 samples.

Results

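Car2, Car3, Car4, Car12 and Car13 are 5 of the 16 carbonic anhydrase genes measured on 25 arrays of mouse mammary tumors and glands, among 19937 genes with a probe set of their own. They were selected on the values of these same arrays, so their levels are given here as a description, with no test, and the tests are kept for the other 11 genes of the family and for genes of acid and bicarbonate transport. Each gene is read by 1 probe set, and its log2 signal is compared between arrays only, since probe sets of different genes differ in brightness for the same amount of RNA. All 5 genes were found, and no filter on low values was set.

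The arrays are labelled as 10 tumors of K8-creERT2/PIK3CA H1047R mice (K8 tumors), 10 tumors of Lgr5-creERT2/PIK3CA H1047R mice (Lgr5 tumors), 2 reference glands of K8-creERT2 control mice (K8 glands) and 3 reference glands of Lgr5-creERT2 control mice (Lgr5 glands). Mice of the K8 line, controls included, are of mixed FVB/CD1 strain, whereas those of the Lgr5 line are FVB/C57/BL6 mixtures. Cre fused to a mutant estrogen receptor is made in cells that use the keratin 8 or the Lgr5 promoter, and tamoxifen, given at 7 to 8 weeks of age, lets it switch on the mutant PI3-kinase subunit there. The strain background differs between the lines together with the promoter, so the contributions of strain and promoter cannot be told apart. The tamoxifen age of 7 to 8 weeks is recorded alike for all arrays, control glands included, with no separate word on whether control mice were treated. The age at collection and whether each tumor came from its own animal are not given in the labels. The p-values therefore measure the spread between these arrays, which may be partly technical.

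Carbonic anhydrases are zinc enzymes that interconvert carbon dioxide and water with bicarbonate and a proton. Car4, held at the outer cell surface by a lipid anchor, and Car12, a transmembrane enzyme, work on the outside of the cell, while Car2, Car3 and Car13 work in the cytosol. In human breast cancer CA12 is a marker of estrogen receptor-positive tumors, CA9 is a classic target of the hypoxia response, and Car3 is abundant in fat cells and in slow skeletal muscle fibres. Enzymes on either side of the membrane act together with bicarbonate, proton and lactate transporters to move acid out of cells.

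The tissue markers went against several labels, and this bears on every result below. Lgr5 tumors 2, 6, 7, 8 and 9 had fat cell genes at a mean of 12.40 to 12.60 (16 genes, log2), against 7.77 to 11.28 on the 20 other arrays, and luminal epithelial genes at 8.84 to 9.75 (13 genes), against 10.65 to 11.31. The fat cell hormone gene Adipoq lay at 12.86 to 12.95 in these 5 and at 5.66 to 11.76 in the others, and the luminal keratin gene Krt8 at 11.25 to 11.90, against 12.80 to 13.23. The 5 arrays labelled as glands, together with K8 tumor 9 and Lgr5 tumor 10, had genes of squamous epithelium at 8.79 to 10.76 (16 genes), while the 13 other tumors had them at 6.23 to 8.21. Lgr5 tumors 2, 6, 7, 8 and 9 are called the 5 fat-rich arrays below, from these gene levels alone, and together with K8 tumor 9 and Lgr5 tumor 10 they are the 7 arrays that stand apart. K8 tumor 9 and Lgr5 tumor 10 resemble the glands in squamous genes, so leaving them out can by itself widen differences between tumors and glands. Labels are kept throughout, and results that rest on these arrays are given with and without them. The share of all genes that do not overlap between the 5 fat-rich arrays and the 20 others was not counted. Adipoq and Krt8, given above, lie outside the family and do not overlap either, so such a gap is not particular to carbonic anhydrases.

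Of the 5 genes, the table of promoter sequences used here (RefSeq, GRCm38.p6) matched 2, Car12 and Car4. Both are shown because they were the only matches, and neither was picked for its values. Each line gives the 250 bases before the annotated transcript start, on the plus strand, and capitals mark the reverse-strand match to the GC box GGGCGG. The Car12 window is chr9:66713436-66713685, inside the annotated span of the gene, and the Car4 window is chr11:84957504-84957753, directly before its span.
Car12: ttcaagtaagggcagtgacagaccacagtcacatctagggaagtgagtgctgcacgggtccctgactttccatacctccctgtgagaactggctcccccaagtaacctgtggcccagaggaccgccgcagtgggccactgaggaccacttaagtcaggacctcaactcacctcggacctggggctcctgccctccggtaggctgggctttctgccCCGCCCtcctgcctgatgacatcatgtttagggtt
Car4: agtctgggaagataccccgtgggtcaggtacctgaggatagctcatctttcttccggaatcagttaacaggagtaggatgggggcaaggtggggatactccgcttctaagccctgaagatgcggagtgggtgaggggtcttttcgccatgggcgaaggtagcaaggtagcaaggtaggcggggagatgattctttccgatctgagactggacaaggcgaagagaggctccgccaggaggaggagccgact
The Car12 window has a GC content of 59.2% and 6 CpG sites, and the Car4 window 56.4% and 11 CpG sites, beside medians of 52.4% and 6 over 32851 promoter windows of the same length. On both strands, the TATA box TATAAA, the CCAAT box CCAAT, the GC box GGGCGG and the core of the hypoxia response element, ACGTG, were searched. These letters occur in 12.4%, 33.8%, 32.7% and 16.6% of all windows. Car12 held 1 GC box, whose first base lies 35 bases before the start, and Car4 held none of the 4. A match is a stretch of letters and not a measured binding site.

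Car12 was the gene with the widest gap. K8 tumors ranged from 10.13 to 11.33 with a median of 10.79. Lgr5 tumors read, by replicate number from 1 to 10, 10.83, 6.03, 11.71, 10.98, 11.09, 6.04, 6.35, 5.98, 5.96 and 10.77. K8 glands read 10.77 and 10.42, and Lgr5 glands 10.75, 11.92 and 10.38. The 5 Lgr5 tumors rich in fat cell genes were thus the low arrays, at 5.96 to 6.35. The 20 others lay between 10.13 and 11.92, with a gap of 3.78 between the sets and no array inside it. The low values lay near or below the array medians of 6.34 to 6.43, where differences may be compressed. Among those 20 arrays, tumors and glands of both lines overlapped.

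The labelled group means of Car12 followed from that split. K8 tumors averaged 10.81 ± 0.36 (SD, n = 10), Lgr5 tumors 8.57 ± 2.65 (SD, n = 10), K8 glands 10.59 ± 0.25 (SD, n = 2) and Lgr5 glands 11.02 ± 0.81 (SD, n = 3). No Lgr5 tumor lay between 6.35 and 10.77, so the Lgr5 tumor mean describes none of its arrays. The difference of Lgr5 tumors minus Lgr5 glands was -2.44 ± 1.13 (SE) with all arrays and 0.06 ± 0.31 without the 5 arrays. K8 tumors minus Lgr5 tumors gave 2.23 ± 0.77 and, without the 5 arrays, -0.27 ± 0.23. K8 tumors minus K8 glands gave 0.21 ± 1.33, with a spread taken from all 25 arrays, and 0.21 ± 0.33 with the 5 arrays left out.

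Of the 10 measured genes of hormone-sensing luminal cells, the estrogen receptor gene Esr1 read 9.46 to 9.81 on the 5 arrays low in Car12, against 8.90 to 9.66 in the 13 other tumors. Pgr, the progesterone receptor gene, read 6.67 to 8.86 against 8.66 to 10.16, and Foxa1, a partner factor of the estrogen receptor, 9.66 to 10.15 against 10.48 to 11.82. The mean of the 10 genes was 8.72 to 9.10 on the 5 arrays, 9.19 to 10.06 in the 13 other tumors, and 7.84 to 8.64 on the 5 glands, K8 tumor 9 and Lgr5 tumor 10, where Car12 read 10.13 to 11.92. The mean on the 5 arrays thus lay between those of the other sets, and the part of hormone-sensing cells in the Car12 values was not tested. Luminal epithelial genes were lower on the same 5 arrays, as given above, and the part of epithelial cell content in the Car12 values was not tested. In bulk tissue, fewer cells of a type and less RNA per cell cannot be told apart.

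**Figure D1:**
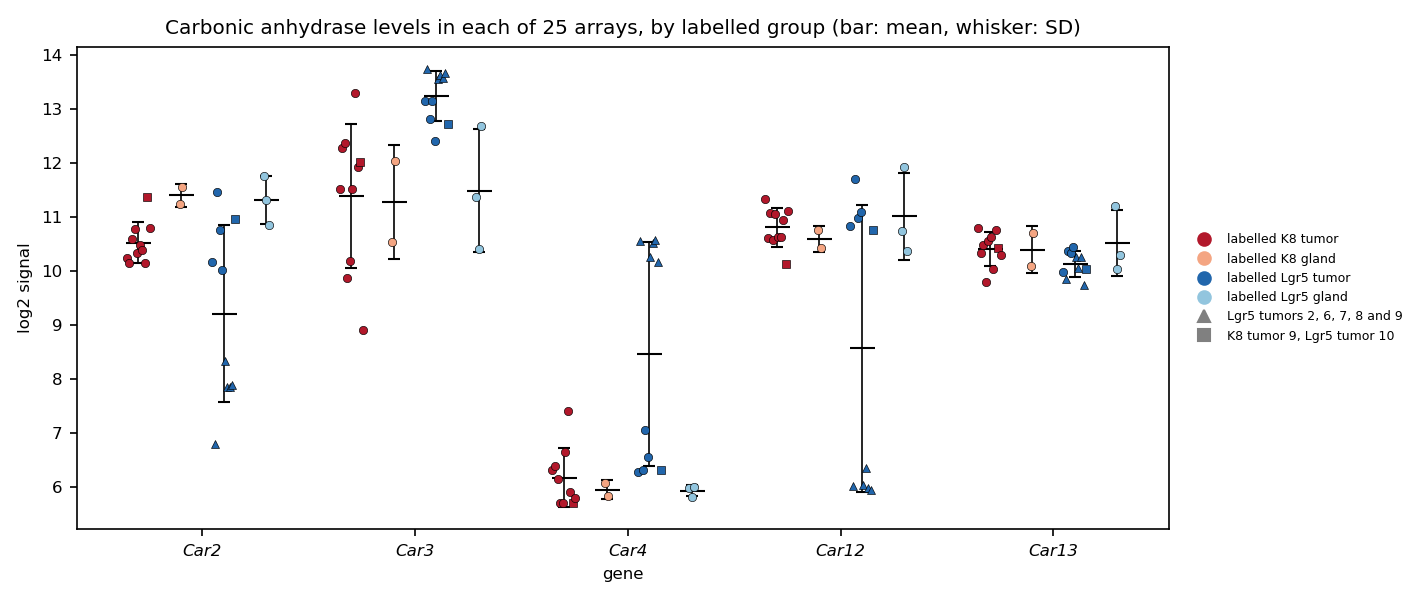
Log2 signal of each carbonic anhydrase gene on each array, by labelled group, with the group mean (bar) and SD (whisker); triangles are Lgr5 tumors 2, 6, 7, 8 and 9, and squares are K8 tumor 9 and Lgr5 tumor 10. The triangles sit apart from all other arrays in Car2, Car4 and Car12, narrowly in Car3, and overlap the others in Car13. The share of all genes with such a gap was not counted. Signals of different genes are not comparable in height.

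Car4 ran the other way. K8 tumors ranged from 5.71 to 7.42 with a median of 6.03. Lgr5 tumors read, from replicate 1 to 10, 6.29, 10.56, 6.33, 7.07, 6.57, 10.27, 10.52, 10.58, 10.16 and 6.33. K8 glands read 6.08 and 5.84, and Lgr5 glands 5.98, 5.83 and 6.01. The same 5 arrays that were low in Car12 were high in Car4, at 10.16 to 10.58, and the 20 others reached at most 7.42, a gap of 2.74. The median of those 20 was 6.12, below the array medians of 6.34 to 6.43, so differences among them may be compressed. The highest of the 20 were K8 tumor 7 at 7.42 and Lgr5 tumor 4 at 7.07, which also had the highest fat cell means of that set, 11.28 and 10.96. Lgr5 tumor 1, next in fat cell mean at 10.41, read 6.29, below K8 tumor 6 at 6.65 with a fat cell mean of 8.74. The part of fat cells in the Car4 values was not tested.

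The Car4 means were 6.18 ± 0.55 in K8 tumors (SD, n = 10), 8.47 ± 2.07 in Lgr5 tumors (SD, n = 10), 5.96 ± 0.18 in K8 glands (SD, n = 2) and 5.94 ± 0.09 in Lgr5 glands (SD, n = 3). Lgr5 tumors minus Lgr5 glands came to 2.53 ± 0.89 (SE), and to 0.58 ± 0.31 without the 5 arrays. All 10 Lgr5 tumors, from 6.29 upward, lay above all 3 Lgr5 glands, which reached 6.01. Both of these values lie below the array medians of 6.34 to 6.43. The share of all genes that separate these groups in this way was not counted. K8 tumors minus Lgr5 tumors came to -2.29 ± 0.61, and to -0.34 ± 0.23 without the 5. K8 tumors minus K8 glands came to 0.22 ± 1.05, and to 0.27 ± 0.34 without the 7 arrays that stand apart, with both glands inside the range of the tumors.

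Car4 is known from capillary endothelium as well as from epithelia, so endothelial genes are set beside it. Their mean (14 genes) was 9.72 to 9.88 on the 5 arrays and 7.76 to 9.49 on the 20 others. K8 tumor 6, with the highest endothelial mean of the 20 at 9.49, read 6.65 in Car4. Kdr, an endothelial growth factor receptor gene, read 9.15 to 9.67 on the 5 arrays and 6.88 to 9.63 on the 20 others. The part of endothelial content in the Car4 values was not tested.

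Car3 was high on most arrays and the most graded of the 5 genes. K8 tumors read, from replicate 1 to 10, 11.51, 12.27, 12.37, 9.88, 10.18, 11.52, 13.29, 11.92, 12.02 and 8.92. Lgr5 tumors read 13.15, 13.74, 12.81, 13.15, 12.41, 13.55, 13.63, 13.57, 13.67 and 12.73 in the same order. K8 glands read 10.53 and 12.03, and Lgr5 glands 11.37, 10.41 and 12.69. The 5 arrays rich in fat cell genes were the highest, at 13.55 to 13.74, only 0.26 above the next array, K8 tumor 7. Those values lie close to the top of the scale, since the brightest probe set of any array read 13.81 to 13.94, and differences at that end may be compressed.

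Over the other 20 arrays Car3 went with the fat cell mean array by array. The 3 lowest tumors, K8 tumors 10, 4 and 5 at 8.92, 9.88 and 10.18, had fat cell means of 7.90, 8.06 and 8.07. The lowest gland, Lgr5 gland 2 at 10.41, had 7.77. The highest tumors of the 20, K8 tumor 7 at 13.29 and Lgr5 tumors 4 and 1 at 13.15 each, had 11.28, 10.96 and 10.41. These 3 arrays also had the highest means of skeletal muscle genes (14 genes), at 10.19, 10.43 and 9.64, whereas the 5 arrays highest in Car3 had muscle means of 6.44 to 6.57. High Car3 was therefore seen both with muscle genes high and with muscle genes low, and the shares of fat and muscle in it were not tested.

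**Figure D2:**
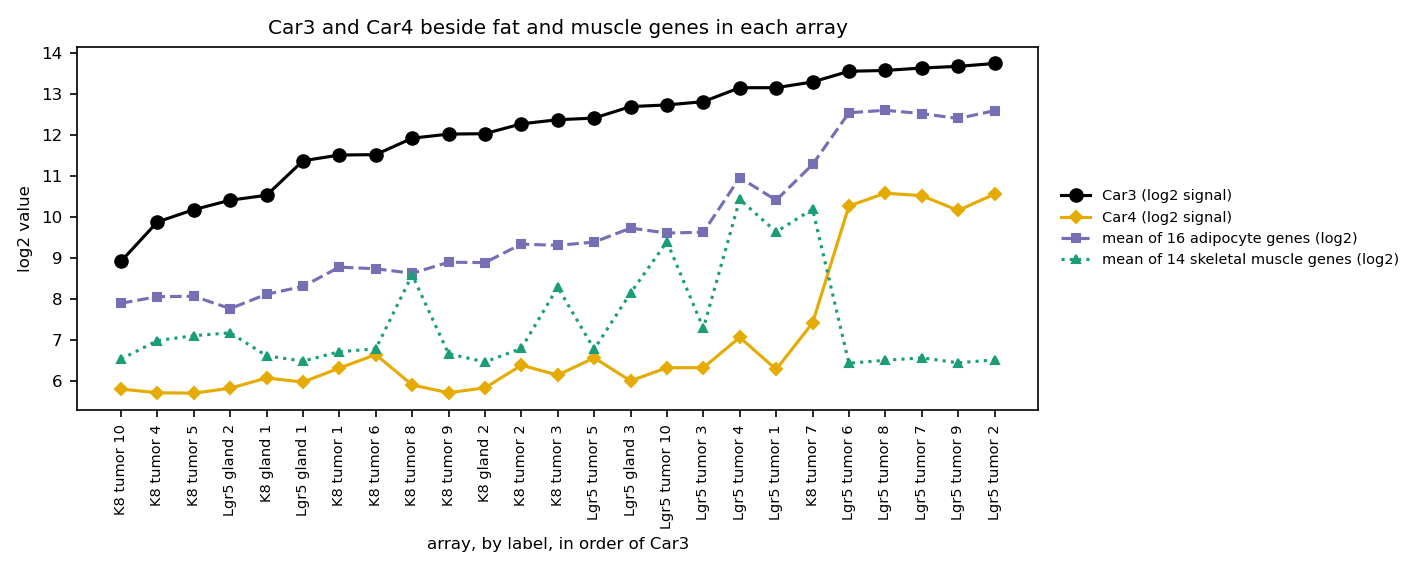
The 25 arrays in order of Car3, with Car3 and Car4 (log2 signal) and the means of 16 fat cell and 14 skeletal muscle genes (log2). Car3 climbs from 8.92 to 13.74 along with the fat cell mean, the muscle mean peaks at 10.43 in Lgr5 tumor 4, and Car4 steps up to 10.16 and above only on the last 5 arrays.

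The Car3 difference between the tumors of the lines changed little when the arrays that stand apart were left out. K8 tumors averaged 11.39 ± 1.33 and Lgr5 tumors 13.24 ± 0.46 (SD, n = 10 each), a difference of -1.85 ± 0.44 (SE). Without Lgr5 tumors 2, 6, 7, 8 and 9 it was -1.46 ± 0.59, and without K8 tumor 9 and Lgr5 tumor 10 as well it was -1.57 ± 0.67. The 5 other Lgr5 tumors ranged from 12.41 to 13.15, and 9 of the 10 K8 tumors lay below 12.41, the exception being K8 tumor 7. Fat cell means of those 5 Lgr5 tumors were 9.39 to 10.96, and those of the 9 K8 tumors 7.90 to 9.34, so the groups differed in fat cell genes in the same direction, and their part in the difference was not tested. Against glands, Lgr5 tumors minus Lgr5 glands (11.49 ± 1.14, SD, n = 3) gave 1.75 ± 0.65 with all arrays and 1.36 ± 0.78 without the 5. K8 tumors minus K8 glands (11.28 ± 1.06, SD, n = 2) gave 0.11 ± 0.76, which became -0.64 without K8 gland 1 and 0.86 without K8 gland 2.

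Car2, the fast cytosolic enzyme of red cells, osteoclasts and many secretory epithelia, was low on the same 5 arrays as Car12. K8 tumors ranged from 10.15 to 11.37 with a median of 10.44. Lgr5 tumors read, from replicate 1 to 10, 10.16, 6.81, 11.47, 10.77, 10.02, 8.33, 7.86, 7.85, 7.90 and 10.96. K8 glands read 11.25 and 11.55, and Lgr5 glands 11.76, 11.32 and 10.86. The 5 arrays lay at 6.81 to 8.33, and the 20 others between 10.02 and 11.76, a gap of 1.70.

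Unlike Car12, Car2 separated most glands from most tumors among the remaining arrays. The 5 glands and the squamous-rich K8 tumor 9 and Lgr5 tumor 10 lay at 10.86 to 11.76. The 13 other tumors lay at 10.02 to 11.47, and only Lgr5 tumor 3, at 11.47, reached above 10.79. Squamous genes were high on these same glands and tumors, and hypoxia genes (16 genes) were too, at 10.19 to 10.76, against 9.35 to 10.03 in the 13 other tumors; the part of either in the Car2 values was not tested. Means were 10.53 ± 0.38 in K8 tumors, 9.21 ± 1.64 in Lgr5 tumors (SD, n = 10 each), 11.40 ± 0.21 in K8 glands (SD, n = 2) and 11.31 ± 0.45 in Lgr5 glands (SD, n = 3). Lgr5 tumors minus Lgr5 glands gave -2.10 ± 0.71 (SE), and -0.64 ± 0.31 without the 5 arrays. K8 tumors minus K8 glands gave -0.87 ± 0.83, and -0.97 ± 0.30 without all 7 arrays that stand apart. K8 tumors minus Lgr5 tumors gave 1.31 ± 0.48, and -0.15 ± 0.23 without the 5 arrays.

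Red cells and cells of the macrophage lineage are known to use Car2, so their genes are set beside it. The 5 measured red cell genes, of 12 listed, averaged 6.29 to 6.60 on the 5 arrays low in Car2 and 5.89 to 6.53 on the others. The osteoclast and macrophage genes (11 genes) averaged 10.49 to 10.76 on those 5 arrays and 10.12 to 11.01 on the others. Alas2, of heme synthesis, read 8.86 to 9.85 on the 5 arrays and 6.89 to 9.62 on the others. In the same order, Epb42 read 5.38 to 5.48 and 5.34 to 5.57, and Slc4a1 6.25 to 6.70 and 5.94 to 6.69. Ctsk read 9.40 to 10.08 and 7.48 to 10.53, and Cd68 9.86 to 10.25 and 8.95 to 11.36. Of these single genes only Acp5, an osteoclast phosphatase, did not overlap, at 11.59 to 11.76 and 10.08 to 11.04. The part of these cells in the Car2 values was not tested.

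Car13, a cytosolic enzyme, was the steadiest of the 5. K8 tumors ranged from 9.79 to 10.79 with a median of 10.46. Lgr5 tumors read, from replicate 1 to 10, 9.98, 9.86, 10.37, 10.33, 10.44, 10.26, 10.05, 10.27, 9.74 and 10.04. K8 glands read 10.09 and 10.70, and Lgr5 glands 11.21, 10.04 and 10.30. All groups overlapped, and the 5 fat-rich arrays, at 9.74 to 10.27, lay within the lower part of the rest, at 9.79 to 11.21. Means were 10.41 ± 0.31 in K8 tumors, 10.14 ± 0.23 in Lgr5 tumors (SD, n = 10 each), 10.40 ± 0.43 in K8 glands (SD, n = 2) and 10.51 ± 0.61 in Lgr5 glands (SD, n = 3). The differences were -0.38 ± 0.21 (SE) for Lgr5 tumors minus Lgr5 glands, 0.01 ± 0.25 for K8 tumors minus K8 glands and 0.28 ± 0.14 for K8 tumors minus Lgr5 tumors. Without the 7 arrays that stand apart they were -0.23 ± 0.27, 0.01 ± 0.28 and 0.13 ± 0.21. The first of the differences with all arrays was -0.03 without Lgr5 gland 1, which holds the highest value.

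**Figure D3:**
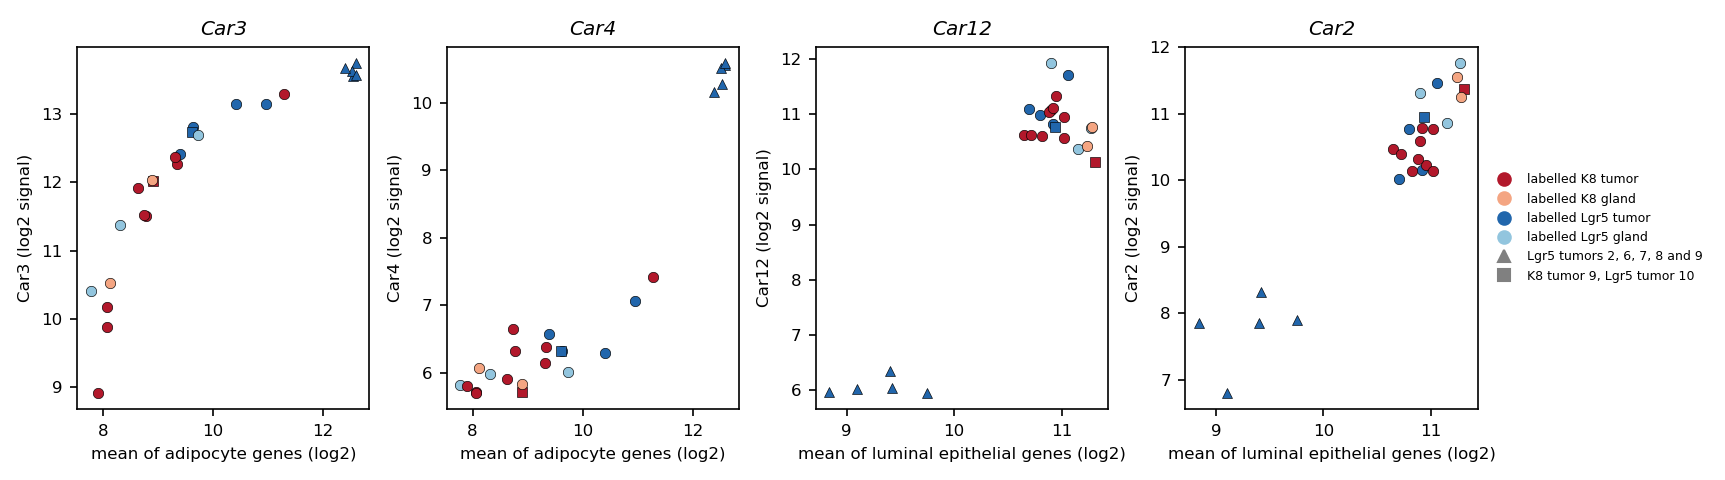
Log2 signal of Car3 and Car4 against the mean of fat cell genes, and of Car12 and Car2 against the mean of luminal epithelial genes, 1 point per array, coloured by labelled group and shaped as in the plot by group. Car3 climbs over the whole range of fat cell means, Car4 is at 10.16 or above only where that mean is 12.40 or above, and Car12 and Car2 are low only on the 5 arrays with epithelial means of 9.75 or less.

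**Figure D4:**
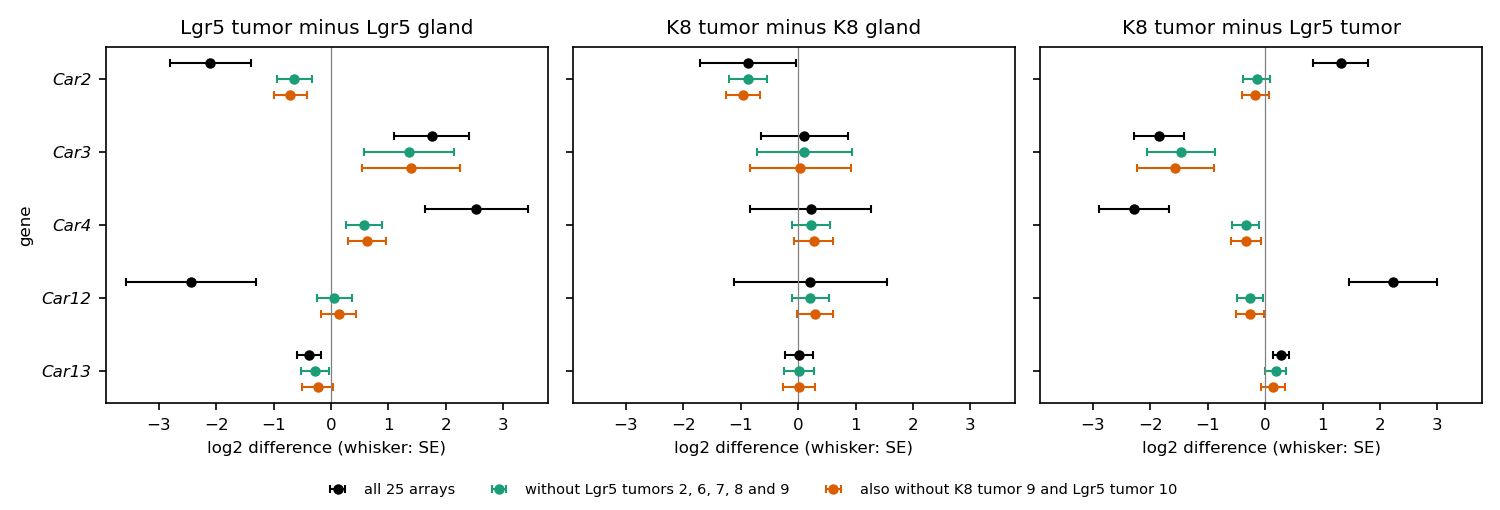
Log2 difference with SE of each gene in the 3 comparisons, with all 25 arrays, without Lgr5 tumors 2, 6, 7, 8 and 9, and also without K8 tumor 9 and Lgr5 tumor 10. For Car12 the comparisons that involve Lgr5 tumors are -2.44 and 2.23 with all arrays and 0.06 and -0.27 when the 5 arrays are left out, while Car3 between the lines is -1.85 and -1.46.

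Levels of the 5 genes by labelled group can be ordered only loosely. For Car12 and Car2, Lgr5 glands and K8 glands overlapped each other, and Lgr5 tumors had the lowest mean with values on both sides of the K8 tumors. For Car4, K8 tumors, K8 glands and Lgr5 glands, at 5.71 to 7.42, 5.84 to 6.08 and 5.83 to 6.01, did not separate, and Lgr5 tumors had the highest mean. For Car3, Lgr5 tumors had the highest mean and the other 3 groups overlapped. For Car13 no pair of groups separated.

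In the genome, Car13, Car1, Car3 and Car2 stand in a row on chromosome 3 (GRCm38.p6, 14641727 to 14900770, 259044 bases). Car3 (chr3:14863538-14872381) and Car2 (chr3:14886269-14900770) are 13888 bases apart, and on the 5 fat-rich arrays Car3 was at its highest while Car2 was at its lowest. Car1, next to Car3 on the other side, was higher on those 5 arrays, at 6.68 to 7.64. On the others it read 5.18 to 6.27, below the array medians of 6.34 to 6.43. Car13 (chr3:14641727-14663002) overlapped between the 5 arrays and the others. The 4 clustered genes thus showed 3 different patterns over the same arrays. Car12 lies at chr9:66712296-66766845, and of its neighbours Usp3, a ubiquitin protease gene, read 9.20 to 9.43 on the 5 arrays and 9.68 to 10.24 on the others, while Aph1b, which encodes a gamma-secretase subunit, overlapped at 7.52 to 8.27 and 7.45 to 8.47. Car4 lies at chr11:84957754-84966054, and its neighbours Znhit3 (5.90 to 6.14 and 5.93 to 6.47) and Usp32 (9.61 to 9.81 and 9.57 to 10.06) overlapped as well. The outer neighbours of the chromosome 3 row, Rbis beside Car13 (7.01 to 7.54 and 6.73 to 7.52) and Gm9733 beside Car2 (5.17 to 5.27 and 5.08 to 5.43), also overlapped.

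The genes whose values ran most like each of the 5 over the 25 arrays are named as a description, by Pearson's r over arrays that share a normalization and fall into separate sets. For Car3 they were Retn (0.962), Adipoq (0.945), Cidec (0.933), Cyp2e1 (0.898) and Plin1 (0.894), of which Retn, Adipoq, Cidec and Plin1 are in the fat cell list. With the 7 arrays that stand apart left out, the values for Car3 were 0.960, 0.951, 0.947, 0.897 and 0.896, so the likeness did not rest on them. For Car4 they were Negr1 (0.990), Dmrt2 (0.989), Fgf10 (0.989), Irs3 (0.989) and Acss3 (0.988), at 0.821 to 0.873 without the 7.

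For Car12 the most alike were Pmepa1 (0.980), Fam160a1 (0.979), Fxyd3 (0.975), Itpr3 (0.974) and Frk (0.973), at 0.570 to 0.769 without the 7 arrays. For Car2 they were Stap2 (0.978), Mboat2 (0.972), Spint1 (0.971), Crabp2 (0.970) and Osbpl10 (0.963), at 0.765 to 0.829 without them. Car13 had the lowest values, with Clba1 (0.784), Bok (0.778), Scn8a (0.761), Rab5a (0.753) and Usp25 (0.742), at 0.687 to 0.846 without them. The genes most like Car12, Car2 and Car4 were thus less like them once the arrays that stand apart were left out. They were picked for the highest r with those arrays included, so a drop could follow from that choice.

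The other 11 carbonic anhydrase genes were tested with limma across all 19937 genes, at an adjusted p under 0.05. In Lgr5 tumors against Lgr5 glands, 0 of 11 rose, where 5.28% of all genes did, and 2 fell, where 10.6% of all genes did. Car9, the hypoxia-responsive surface enzyme, fell to 6.30 ± 0.54 in Lgr5 tumors (SD, n = 10), against 7.47 ± 0.72 in Lgr5 glands (SD, n = 3), lower by -1.17 ± 0.32 on the log2 scale (SE, limma adjusted p = 0.0214). Car6, the secreted enzyme of saliva, fell to 6.11 ± 0.69 in Lgr5 tumors (SD, n = 10), against 8.15 ± 1.61 in Lgr5 glands (SD, n = 3), a difference of -2.04 ± 0.65 (limma adjusted p = 0.0386). The median difference of the 11 genes was 0.24, beside -0.01 over all genes. Neither call was made without the 5 fat-rich arrays, where the differences were -0.79 ± 0.35 for Car9 (limma adjusted p = 0.229) and -2.0 ± 0.80 for Car6 (0.191), and both were made again without all 7 arrays, at -0.96 ± 0.30 (0.0337) and -2.39 ± 0.79 (0.0469). With array weights 5 of the 11 rose and 2 fell, where 39.2% of all genes were called, and 0 were called when only the compared groups were fitted, where 3.46% of all genes were and 3 of the 11 had an unadjusted p under 0.05 in limma. Leaving out Lgr5 gland 1 or 2 ended both calls, where 1.26% and 9.91% of all genes passed. The call of Car6 was also lost without Lgr5 gland 3, where 3.54% did, or without any 1 of Lgr5 tumors 2, 6, 8 and 9.

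In K8 tumors against K8 glands, 0 of the 11 rose, where 3.42% of all genes did, and 1 fell, where 5.69% did. Car6 fell to 5.88 ± 0.40 in K8 tumors (SD, n = 10), against 12.03 in K8 gland 1 and 7.30 in K8 gland 2, a difference of -3.79 ± 0.77 (SE, limma adjusted p = 0.012). K8 gland 1 carries most of that difference, which was -1.42 without it (limma adjusted p = 0.397). Lgr5 gland 2, at 9.98, was the only other array with a Car6 signal above 7.66. Car9 averaged 6.55 ± 0.43 in K8 tumors (SD, n = 10) and 7.37 ± 0.28 in K8 glands (SD, n = 2), a difference of -0.82 ± 0.38 that did not pass (limma adjusted p = 0.187). The median of the 11 genes was -0.01, as over all genes.

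Hypoxia and squamous genes were higher on the set of arrays where Car9 was mostly higher, but not array by array. The 5 glands, K8 tumor 9 and Lgr5 tumor 10 had Car9 at 6.70 to 8.13 and hypoxia gene means of 10.19 to 10.76. Among these arrays Lgr5 gland 2 had the highest Car9, at 8.13, and the lowest hypoxia and squamous means, at 10.19 and 8.79. Of the 13 other tumors, K8 tumor 5 at 6.97 and Lgr5 tumor 3 at 7.18 reached into that range of Car9, with squamous means of 6.23 and 6.44. The 5 fat-rich arrays had the lowest Car9, at 5.81 to 6.09, with hypoxia means of 9.87 to 10.16, against 9.35 to 10.03 in the 13 other tumors. Single hypoxia genes differed in direction. Slc2a1 read 9.61 to 9.74 on the 5 arrays and 10.84 to 11.63 in the 13 other tumors, without overlap. In the same order, Ldha read 12.74 to 12.98 and 12.43 to 12.88, and Pgk1 10.75 to 11.44 and 11.12 to 11.83. The part of hypoxia and squamous genes in the Car9 values was not tested.

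Between the tumor groups, 0 of the 11 were higher in K8 tumors, where 12.3% of all genes were, and 3 were lower, where 9.00% were. Car5b, a mitochondrial enzyme, averaged 10.07 ± 0.47 in K8 tumors and 11.28 ± 1.08 in Lgr5 tumors (SD, n = 10 each), a difference of -1.22 ± 0.35 (SE, limma adjusted p = 0.0209). Car1, a cytosolic enzyme of red cells, averaged 5.42 ± 0.32 in K8 tumors and 6.28 ± 0.92 in Lgr5 tumors, a difference of -0.86 ± 0.28 (limma adjusted p = 0.0328). Car11, a family member without enzyme activity, averaged 6.18 ± 0.12 in K8 tumors and 6.52 ± 0.31 in Lgr5 tumors, a difference of -0.34 ± 0.10 (limma adjusted p = 0.02). Without the 5 fat-rich arrays 0 of all 19937 genes passed in limma, these 3 included. Their differences there were -0.25 ± 0.26, -0.03 ± 0.13 and -0.13 ± 0.08 (limma adjusted p = 0.791, 0.952 and 0.653), and 0 of the 11 genes had an unadjusted p under 0.05. The Car1 call was also lost without any 1 of Lgr5 tumors 2, 6, 7, 8 and 9 or K8 tumors 3, 4, 5 and 10. On the 5 arrays Car5b read 12.03 to 12.41, above the 9.52 to 11.16 of the others.

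The remaining genes of the family showed no call in any of the 3 comparisons. Car8, a relative without enzyme activity, averaged 9.07 ± 0.71 in K8 tumors, 8.72 ± 0.66 in Lgr5 tumors (SD, n = 10 each), 7.68 ± 0.21 in K8 glands (SD, n = 2) and 8.27 ± 1.21 in Lgr5 glands (SD, n = 3). Car5a, Car7, Car10, Car14 and Car15 had group means between 5.37 and 6.67, near or below the array medians of 6.34 to 6.43, with log2 differences of -0.16 to 0.31.

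**Figure D5:**
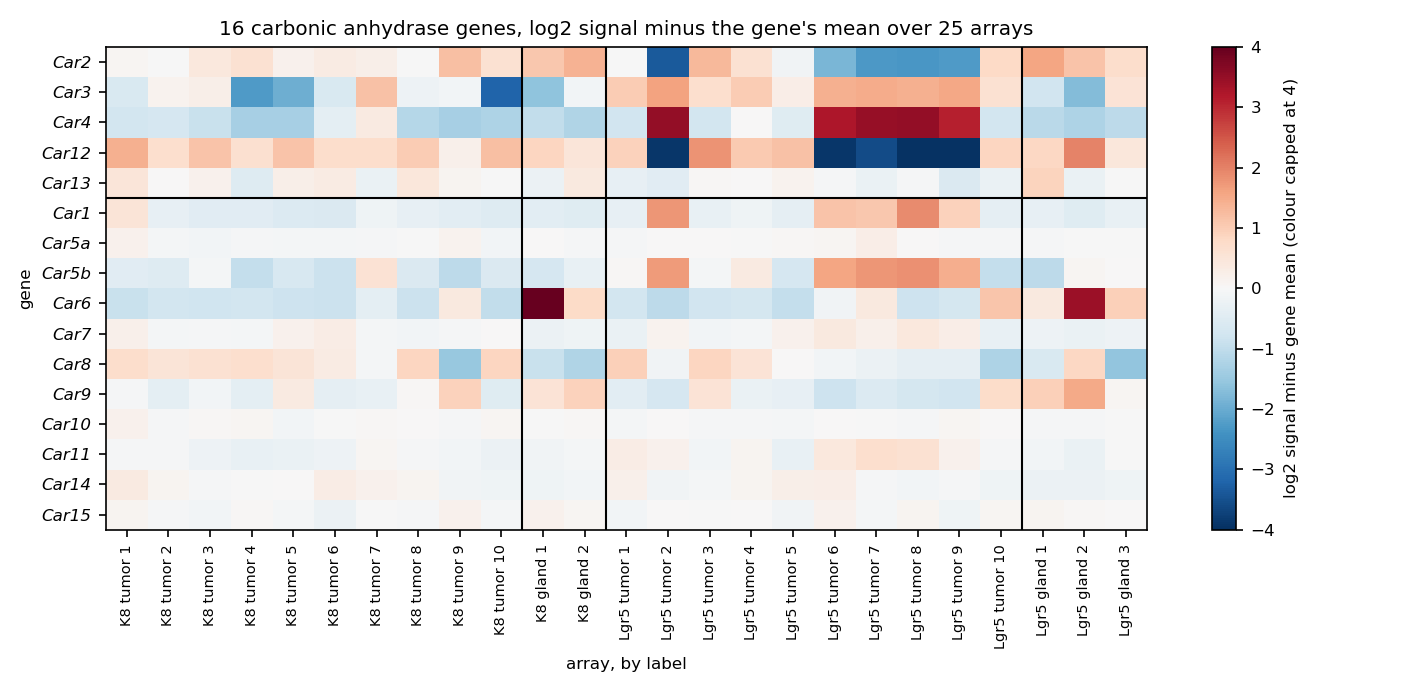
The 16 carbonic anhydrase genes (rows, the 5 described genes above the line) on the 25 arrays (columns, by label), as log2 signal minus the gene's mean over all arrays. Lgr5 tumors 2, 6, 7, 8 and 9 are blue in Car2 and Car12 and red in Car4, Car1 and Car5b, and Car6 is red in K8 gland 1 and Lgr5 gland 2.

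Transporters of bicarbonate and related anions, of the Slc4 and Slc26 families and Cftr, gave 20 measured genes. In Lgr5 tumors against Lgr5 glands 1 rose and 5 fell, where 5.28% of all genes rose and 10.6% fell. Among them were Slc26a9, a chloride transporter, at 5.96 ± 0.60 in Lgr5 tumors (SD, n = 10) and 7.76 ± 1.05 in Lgr5 glands (SD, n = 3), a difference of -1.80 ± 0.47 (SE, limma adjusted p = 0.0182), and Slc26a2, a sulfate transporter, at -0.84 ± 0.20 (0.0128). Slc4a11 fell by 0.75 (limma adjusted p = 0.0131), and Slc4a2, an anion exchanger that trades chloride for bicarbonate, fell by 0.31 (0.0137). The median of the list was 0.02, beside -0.01 over all genes. Without the 5 fat-rich arrays 0 of the 20 passed, where 0.00502% of all genes did, and 6 of the 20 had an unadjusted p under 0.05 in limma. The differences of Slc26a9, Slc26a2, Slc4a11 and Slc4a2 were then -1.42, -0.47, -0.76 and -0.24. Without all 7 arrays that stand apart 1 rose and 5 fell, where 7.14% of all genes rose and 10.8% fell. The calls of Slc26a2, Slc26a9 and Slc4a2 were lost without Lgr5 gland 1, where 1.26% of all genes passed. Those of Slc4a11 and Slc4a2 were lost without Lgr5 gland 2, where 9.91% did. Squamous genes averaged 6.02 to 9.98 in Lgr5 tumors and 8.79 to 10.76 in Lgr5 glands, and their part in these differences was not tested.

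In K8 tumors against K8 glands 1 of the 20 rose and 1 fell, near the 3.42% and 5.69% of all genes. Slc26a9 averaged 6.10 ± 0.83 in K8 tumors (SD, n = 10) and 8.22 ± 0.05 in K8 glands (SD, n = 2), a difference of -2.12 ± 0.56 (SE, limma adjusted p = 0.0249). Slc4a3, another chloride-bicarbonate exchanger, averaged 7.23 ± 0.19 in K8 tumors and 6.72 ± 0.13 in K8 glands, a difference of 0.51 ± 0.12 (limma adjusted p = 0.0193). Both calls were lost without either K8 gland, where few of all genes were called. The list median was -0.02, beside -0.01 over all genes. Squamous genes averaged 6.23 to 9.72 in K8 tumors and 10.06 to 10.36 in K8 glands, and their part in these differences was not tested.

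Between tumors, 1 of the 20 was higher in K8 tumors and 2 were lower, near the 12.3% and 9.00% of all genes. Slc4a4, the sodium bicarbonate cotransporter, averaged 7.77 ± 0.58 in K8 tumors and 8.79 ± 1.07 in Lgr5 tumors (SD, n = 10 each), a difference of -1.02 ± 0.36 (SE, limma adjusted p = 0.0463), which was -0.08 ± 0.28 without the 5 fat-rich arrays. Slc4a1, the anion exchanger of red cells, which is in the red cell list too, was lower in K8 tumors, at -0.21 (limma adjusted p = 0.0315), and Slc4a2 was higher, at 0.16 (0.032). Of the 25 fits that leave out 1 array, 16 lost the call of Slc4a4, 5 that of Slc4a1 and 7 that of Slc4a2. None of the 20 passed in limma without the 5 arrays, where 0 of all 19937 genes did and 2 of the 20 had an unadjusted p under 0.05. The list median with all arrays was -0.01, beside 0.01 over all genes.

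Proton and lactate transport was followed through 24 measured genes, among them subunits of the vacuolar proton pump, sodium-proton exchangers and monocarboxylate carriers. In K8 tumors against K8 glands 1 rose and 6 fell, where 3.42% of all genes rose and 5.69% fell, with a list median of -0.38, beside -0.01 over all genes. Slc16a3, the lactate exporter of glycolytic cells, averaged 7.84 ± 0.73 in K8 tumors (SD, n = 10) and 10.22 ± 0.32 in K8 glands (SD, n = 2), a difference of -2.38 ± 0.59 (SE, limma adjusted p = 0.0205). The pump subunit genes Atp6v1c2, Atp6v1b2 and Atp6v0a2 fell by 2.41, 1.03 and 0.43 (limma adjusted p = 0.0211, 0.0305 and 0.0309). All 4 calls were lost without either K8 gland, where few of all genes were called, and squamous genes differed as given above. Without K8 tumor 9, the K8 tumor rich in squamous genes, 11 of the 24 passed, as did 4 of the 20 bicarbonate genes and 2 of the 11 carbonic anhydrases, while the share of all genes called was 17.0%, beside 9.10% with that array. Without all 7 arrays that stand apart 17, 6 and 3 passed, with 26.8% of all genes.

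In Lgr5 tumors against Lgr5 glands 1 of the 24 rose and 3 fell, near the 5.28% and 10.6% of all genes, with a list median of -0.22, beside -0.01 over all genes. Slc16a3 averaged 7.93 ± 0.87 in Lgr5 tumors (SD, n = 10) and 9.76 ± 0.84 in Lgr5 glands (SD, n = 3), a difference of -1.83 ± 0.50 (SE, limma adjusted p = 0.0206). Atp6v1c2 and Slc9a3r1, which encodes a scaffold of membrane transporters and not a transporter, fell by 1.51 and 0.91 (limma adjusted p = 0.049 and 0.0488), and Slc16a7, a monocarboxylate carrier, rose by 1.38 (0.0457). None of the 24 passed without the 5 fat-rich arrays in limma, where 0.00502% of all genes did and 3 of the 24 had an unadjusted p under 0.05. Without all 7 arrays 1 of the 24 rose and 7 fell, where 7.14% of all genes rose and 10.8% fell. Slc16a3 was then at -1.80 ± 0.31 (limma adjusted p = 0.00123). Without Lgr5 gland 1 the count was 0, where 1.26% of all genes passed. Of the 25 fits that leave out 1 array, 17 lost the call of Slc16a7 and 19 each those of Slc9a3r1 and Atp6v1c2.

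Between tumors 3 of the 24 were higher in K8 tumors and 3 lower, near the 12.3% and 9.00% of all genes. Emb, which encodes a partner of monocarboxylate carriers, averaged 10.67 ± 0.39 in K8 tumors and 9.68 ± 1.07 in Lgr5 tumors (SD, n = 10 each), a difference of 0.99 ± 0.33 (SE, limma adjusted p = 0.0372). Slc16a1, the widespread monocarboxylate carrier, Atp6v0a1 and Atp6v0d1 were lower in K8 tumors, at -0.62, -0.42 and -0.22 (limma adjusted p = 0.023, 0.0177 and 0.0174). The list median was -0.05, beside 0.01 over all genes. None of the 24 passed in limma without the 5 fat-rich arrays, where 0 of all 19937 genes did and 1 of the 24 had an unadjusted p under 0.05. Of the 25 fits that leave out 1 array, 12 lost the call of Emb.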

How the data were processed

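Total RNA extracted with Trizol from homogenized tissue was amplified from 100 ng input and hybridised to Affymetrix whole-transcript arrays, per the labels' protocols. The log2 values analysed are those the authors deposited for 34760 probe sets, and the scale was taken from their range because no base is stated. The affy package is named without a version in the submitters' processing notes, while background correction and summarization are steps not given in the sources used here. Array medians were 6.34 to 6.43, and no detection calls were used, so the number of arrays limits the precision.

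Probe sets with 1 gene symbol in the platform annotation (21640) were used, 1321 with several symbols and 11799 unlisted ones were left out, and 21553 of those used were found by identifier among the genes of GRCm38.p6. For 954 symbols with several probe sets the one with the highest mean was kept. The 5 genes, the gene and marker lists and the arrays to leave out were chosen with earlier results of these data known. Genes are named by rule: all carbonic anhydrases, of each transport list the 4 smallest adjusted p among calls in each comparison, the 5 most alike genes, and chromosome neighbours. Single marker genes were taken from the first 3 of a marker list, and for several lists not all 3, or none, are named.

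Group means were fitted with limma 3.58.1 (R 4.3.3) over all 25 arrays in 4 groups, and p-values were adjusted by Benjamini-Hochberg over 19937 genes with a threshold of 0.05. Simulated data of 19937 genes had log2 changes of 1 set in 100 genes and of 2 in another 100. The fit recovered 85% and 90% of them for Lgr5 tumors against glands and 79% and 88% for K8 tumors against glands. Between tumors it recovered 91% and 99%, and false calls numbered 12, 6 and 16. Genes were simulated independently, with normal noise of the same spread in all groups. The split within Lgr5 tumors was not simulated, so these rates do not carry over to the real calls. Means and SDs are given only for labelled groups. The highest correlation between arrays was 0.996, and no arrays held the same values. Alternatives are in the closing section. Figures were drawn with matplotlib 3.10.9.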

Additional observations from a re-analysis of the deposited data

Results flagged for a closer look

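Among the 11 carbonic anhydrases other than the 5 chosen on these values, 4 values stood far from the rest of their labelled group by Dixon's gap test, out of 22 groups of 10 tumors tested, where chance gives about 1 in 20. Car6 read 6.93 in K8 tumor 9, above the next at 6.15, and Car8 read 7.20 there, below the next at 8.65. K8 tumor 9 is also the K8 tumor with the highest mean of squamous genes, at 9.72. Car1 read 6.27 in K8 tumor 1, above the next at 5.56. Car5a read 5.77 in Lgr5 tumor 7, above the next at 5.58.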

How the results depend on the processing

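Among the 5 genes, differences larger than their SE with all arrays were reversed only by leaving out arrays. Smaller differences also changed sign. In K8 tumors minus K8 glands Car3 went from 0.11 to -0.64, and Car13 from 0.01 to -0.29, without K8 gland 1. Without Lgr5 tumors 2, 6, 7, 8 and 9 the Lgr5 tumor minus gland difference of Car12 was 0.06 and the K8 minus Lgr5 tumor differences of Car12 and Car2 were -0.27 and -0.15; without these and also K8 tumor 9 and Lgr5 tumor 10 (all 7 arrays) they were 0.14, -0.27 and -0.17. Car4 fell below the filter on genes above the median mean and has no value there.

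The count of all genes called was 3168 for Lgr5 tumors against glands, 1815 for K8 tumors against glands and 4246 for K8 against Lgr5 tumors. Fitting only the compared groups gave 690 and 2859 in the first 2 comparisons, and array weights gave 7815, 6341 and 7997. Leaving out the 5 fat-rich arrays gave 1 in the first (3808 at unadjusted p under 0.05) and 0 in the third (1638), K8 tumor 9 and Lgr5 tumor 10 gave 5387 and 3963 in the first and second, and all 7 gave 5351 in the second and 0 in the third (2272). Leaving out 1 array at a time gave 252 (Lgr5 gland 1) to 4990 (Lgr5 tumor 10), 30 (K8 gland 1) to 3382 (K8 tumor 9) and 2291 (Lgr5 tumor 8) to 5698 (Lgr5 tumor 3). The cause of these changes was not tested. Apart from the replicate block, given below, the other settings stayed within 1.5 times in these 3 counts. Calls in the lists of other carbonic anhydrases, bicarbonate and proton genes also changed: array weights gave 7, 10 and 13 in the first comparison (2, 6 and 4 as reported), 4, 8 and 15 in the second (1, 2 and 7) and 3, 6 and 15 in the third (3, 3 and 6), and fitting only the compared groups gave 0, 2 and 0, then 1, 3 and 11, then 2, 2 and 3.

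Replicate numbers did not pair the tumors: deviations of same-numbered tumors correlated at -0.15 to 0.51, 4 of 10 pairs over 0.1, and 1 of 10 matched its own number best. With the replicate block the counts were 1737, 1420 and 4246. Groups of 2 and 3 glands limit every comparison with glands, and signals near the top of the scale limit Car3.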
